A study of Oryctolagus cuniculus with 54 samples.

Results

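The genes described here were the 150 whose level stood higher in the rabbit lung at gestational day 20 than at day 23, taken from 29587 genes of a count table. Members were chosen in the libraries of 1 sequencing run. The group value was the mean of log2(CPM + 1), where CPM is the count scaled to the library total in the usual CPM unit. A gene needed an F20 value of at least 2.6 and a level in each of the 4 F20 animals above that in each of the 4 F23 animals, and the 150 with the largest F20 minus F23 difference were kept. Of 8768 genes at or above the floor, 520 (5.93%) were separated in this way. The members were thus chosen by their F20 and F23 values, and every comparison with these 2 groups is a description with no test.

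Lungs came from New Zealand White rabbits, and 54 libraries from 45 animals were sequenced in 3 runs. Fetuses were delivered by caesarean section at gestational day 20, 23, 25, 27, 28 or 29 (F20 to F29). Term pups were born naturally at day 31, stayed with their mothers in room air, and were collected on the day of birth (T31) or after a further 4 (T35), 6 (T37) or 11 (T42) days. Preterm pups were delivered by caesarean section at day 28, kept in incubators at 21% oxygen on a milk replacer, and collected 1 hour (P0), 3 days (P3) or 7 days (P7) later. There were 4 animals at F20, F23 and T37, 6 at T31, and 3 in each other group. Per the study's methods each lung came from a different dam, and whole lungs were used at F20 and F23, whereas the labels name a homogenate of the right lung. The sampled part of the lung may thus differ between the first 2 time points and the later ones. The libraries read the 3′ ends of transcripts, and their totals ran from 5771693 to 8073755 counts.

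In the pseudoglandular phase, to which F20 and F23 belong, the epithelial tubes of the lung branch repeatedly into the surrounding mesenchyme and lay down the conducting airways. Air spaces then widen and capillaries approach the epithelium in the canalicular phase (F25 and F27). Thin-walled sacs form in the saccular phase (F28 and F29) and are divided by septa in the alveolar phase, which holds the term groups. Genes that are high early in this sequence are commonly linked to growth, branching and patterning. The count table names genes by Ensembl identifier alone, and 0 of the 29587 identifiers matched the RefSeq gene table of assembly mOryCun1.1. Members are therefore called by their rank, 4 of them by identifier, and the roles of single genes and the marker genes of the labelled tissue were not analysed here. In bulk lung RNA, fewer cells of a type and less RNA per cell cannot be told apart.

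The F20 minus F23 difference had a median of 0.72 on the log2 scale, from 0.54 at rank 150 to 3.46 at rank 1, and 33 of the 150 members exceeded 1. The ratio of the mean CPM at F20 to that at F23 had a median of 1.73 and reached 7.05. Mean levels at F20 were under 10 CPM in 36 members, from 10 to under 50 CPM in 85, and 50 CPM or more in 29. The most abundant member, at rank 84, stood at a mean of 395 CPM in F20 and 242 CPM in F23. At the edge of the choice, ranks 148, 149 and 150 had differences of 0.55, 0.55 and 0.54, and the 3 genes just outside had 0.54, 0.54 and 0.54. The members nearest the floor, at ranks 6, 118 and 122, had F20 values of 2.63, 2.63 and 2.63, and the nearest separated genes below it had 2.58, 2.55 and 2.55. A further 203 genes over the floor had a larger difference than the last member but overlapping animals. The opposite order, with all F23 animals above all F20 animals and the same floor on F23, held for 1030 genes.

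In each of the 2 groups 1 animal stood above the others. The summed CPM of the 150 members was 6902 in F20 animal 1 and 5615, 5753 and 5366 in F20 animals 17, 35 and 36. It was 3839 in F23 animal 22 and 3260, 3106 and 3204 in F23 animals 6, 23 and 40. F20 animal 1 was the highest of its group in 89 members, and F23 animal 22 was the highest of its group in 89. Over the 8768 genes at or above the floor, these animals were highest in 41.1% and 31.7%. They also had the lowest totals of their groups, 6433138 and 6448608 counts, and the part of depth in the result was not tested. Without F20 animal 1 the rule kept 113 of the 150 members, and without F23 animal 22 it kept 103.

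The first-ranked member was present or nearly absent by animal. Its level was 22.2, 20.5, 38.8 and 24.0 CPM in F20 animals 1, 17, 35 and 36. At F23 it was 0.15, 0.31 and 0.15 CPM in animals 6, 22 and 23, and 18.8 CPM in animal 40. The F23 mean was thus set by 1 animal, and that animal lay just below the lowest F20 animal. After F23 its level ran from 0 to 11.2 CPM, with T37 alone holding 0.41, 2.95, 10.8 and 9.29 CPM in animals 12, 27, 46 and 47.

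After F23, levels have to be read within a sequencing run. The same animals gave different levels of the members in different runs, as the plot of summed levels by library shows. In the 5 animals sequenced in both runs 1 and 3, the summed CPM of the members in run 3 was 0.493 to 0.668 times that in run 1. Between 106 and 112 of the 150 members were lower in run 3 in each of these animals. Their median difference, run 3 minus run 1, lay between -0.66 and -0.34 on the log2 scale, against -0.09 to -0.06 for the 8768 genes at or above the floor.

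**Figure D1:**
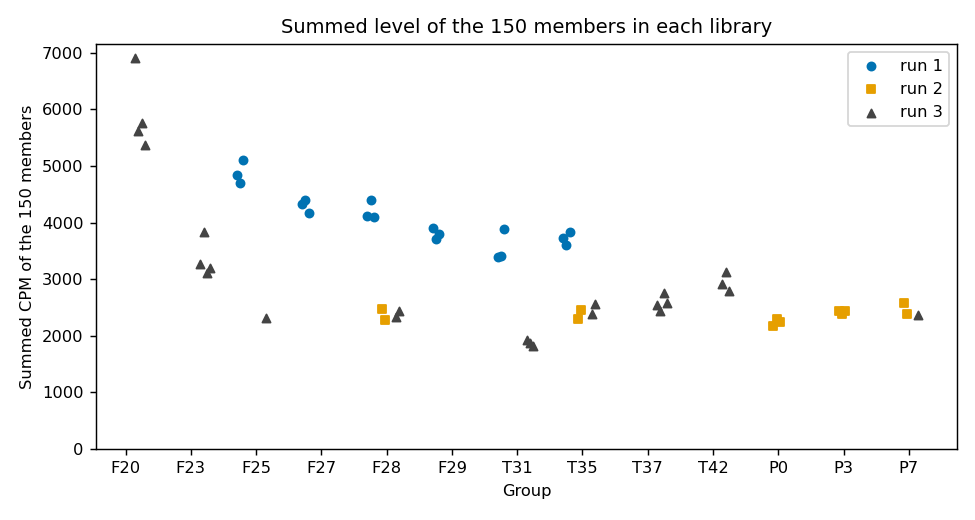
Summed CPM of the 150 members (vertical axis) in each of the 54 libraries by group (horizontal axis), with colour and symbol giving the sequencing run. F20 libraries lie between 5366 and 6902 CPM, and at F25, F28, T31 and T35 the run 1 libraries lie above those of the other runs.

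The runs were then compared within animals. Over the 15 libraries of the 6 animals sequenced more than once, with the animal as a block, 4110 of 14360 genes (28.6%) were called between runs 3 and 1 by edgeR's quasi-likelihood test. A call here and throughout means a fold change above 2 and a Benjamini-Hochberg adjusted p of at most 0.05 over all genes tested. Of 148 members tested, 8 were called higher and 48 lower in run 3, or 5.41% and 32.4%, against 11.4% and 17.2% of all genes. The median log2 difference was -0.44 in members and 0.06 in all genes tested. F20 and F23 were both sequenced in run 3 alone, so the members were chosen within 1 run. Whether technical differences among the libraries of that run entered the choice was not tested. No level of F20 or F23 can be compared directly with one from run 1 or run 2.

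**Figure D2:**
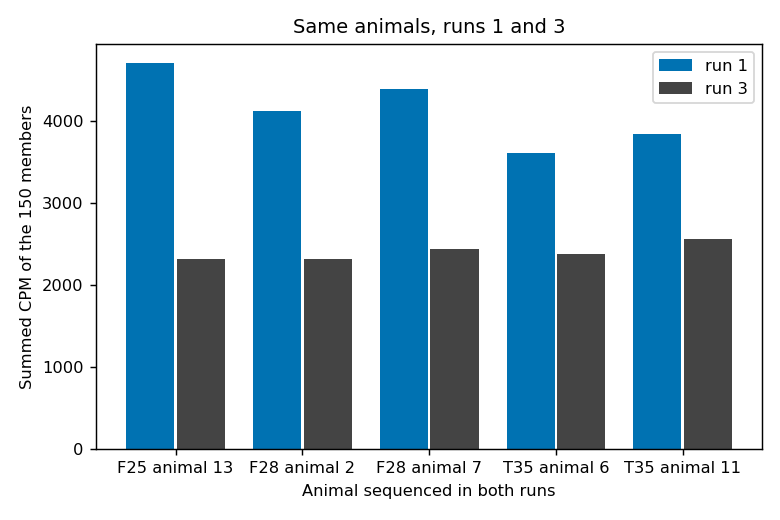
Summed CPM of the 150 members (vertical axis) in the 5 animals sequenced in both runs (horizontal axis), with 1 bar per library. In every one of these animals the run 1 bar is higher, and run 3 over run 1 ranges from 0.493 to 0.668.

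Run 3 held F20, F23 and the later groups T31, T37 and T42 with at least 3 libraries each. It also held 1 library of F25, 2 of F28, 2 of T35 and 1 of P7. On the log2(CPM + 1) scale the member medians of these were 2.80, 2.55, 2.50 and 2.35. The median value of the members was 4.37 at F20, 3.61 at F23, 2.33 at T31, 2.77 at T37 and 2.71 at T42, on the log2(CPM + 1) scale. Over the 8768 genes at or above the floor the medians were 5.25, 5.27, 5.0, 5.20 and 5.10. At T31, 128 of the 150 members stood at or below their F23 value, 14 lay between F23 and F20, and 8 were above F20. By T42, 104 were at or below F23, 29 lay between and 17 were above F20. In 98 members the value stayed at or below F23 in T31, T37 and T42 alike. The matching shares of the 8768 genes were not counted, so these member counts cannot be set against them. Summed CPM ran from 1814 to 1926 at T31, from 2433 to 2752 at T37 and from 2787 to 3118 at T42, and these 3 groups did not overlap. The 5 most abundant members made up 33.3% of the sum at T31 and 34.2% at T42.

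**Figure D3:**
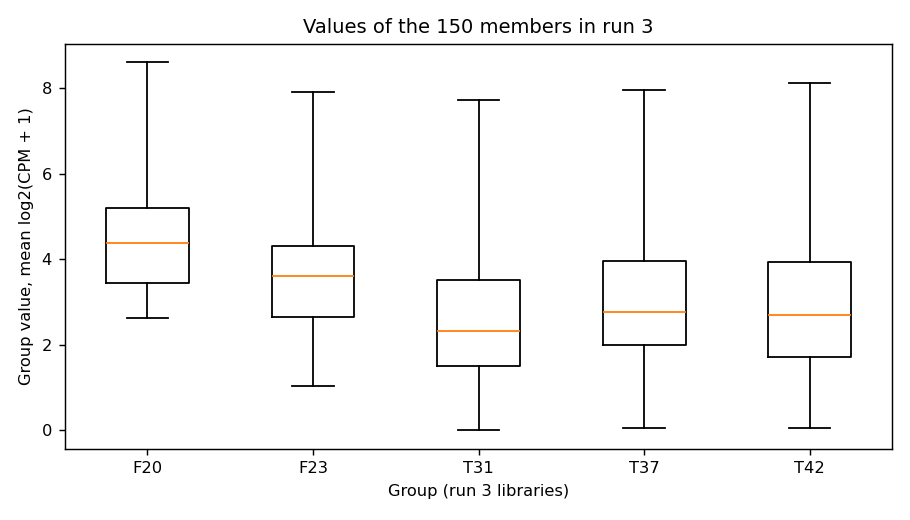
Group values of the 150 members, as mean log2(CPM + 1) (vertical axis), in the 5 groups with at least 3 libraries in run 3 (horizontal axis). Boxes run from the lower to the upper quartile with the median inside, and whiskers reach the lowest and highest member. The medians are 4.37, 3.61, 2.33, 2.77 and 2.71.

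Run 1 covered F25 to T35. There the median of the members was 3.64 at F25, 3.37 at F27, 3.23 at F28, 3.04 at F29, 3.01 at T31 and 2.95 at T35. Over the genes at or above the floor the run 1 medians also declined, at 5.41, 5.33, 5.32, 5.26, 5.25 and 5.18 in the same order. Summed CPM was 4704 to 5108 at F25 and 3702 to 3900 at F29, again without overlap. At T31 it was 3383 to 3889 and at T35 3608 to 3837, both overlapping F29. Run 2 held the preterm pups other than P7 animal 1, with F28 and T35 controls. Its medians lay close together, at 2.75 for F28, 2.68 for P0, 2.64 for P3, 2.51 for P7 and 2.50 for T35. Those of F28, P7 and T35 came from 2 libraries each. Over the genes at or above the floor the run 2 medians were 5.17, 5.09, 5.14, 5.17 and 5.04 in the same order.

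Within run 3, 48 of the 150 members (32.0%) were lower in each of the 16 libraries after F23 than in each F23 library. Of the 8768 genes at or above the floor 14.5% were. The rule used the F23 values, so these shares are a description. Among the 48 were the members at ranks 2, 5, 9, 10, 13, 17 and 21, and rank 10 was one of the lowest. This member measured 22.7, 20.1, 23.5 and 28.4 CPM in F20 animals 1, 17, 35 and 36 and 6.04, 14.3, 9.84 and 4.42 CPM in F23 animals 6, 22, 23 and 40. After F23 it had a count of 0 in 29 of 46 libraries and at most 7 counts, or 1.01 CPM, in any. A count of 0 allows up to 0.372 to 0.512 CPM in these libraries (3 counts, counting error only). This member was too low for the tests and was named after its values were seen.

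From F25 to F29, between the canalicular and the saccular phase, 19 of the 149 members tested fell and 3 rose. The shares were 12.8% and 2.01%, against 2.51% and 4.17% of the 15090 genes tested, where 6.68% were called in all. The median log2 fold change was -0.40 in members and 0.01 in all genes. These calls came from edgeR's quasi-likelihood test over the animals of F25 to T42 with the run in the model. In run 1, 80 of the 149 members tested (53.7%) had each F29 library below each F25 library, as had 24.2% of all genes tested. With the libraries of run 1 alone, 27 members fell and 3 rose, where 7.41% of genes were called, 4.42% higher and 2.99% lower, and 18 of the 19 were again among those that fell. Without F29 animal 2, 13 fell and 1 rose, where 5.33% of genes were called. With no run in the model, 9 fell and 4 rose, where 4.71% of genes were called. Of the 22 members called, 9 (40.9%) were also called between runs 3 and 1 in the same animals, against 37.8% of the members tested there. The matching share of all genes called from F25 to F29 was not counted.

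**Figure D4:**
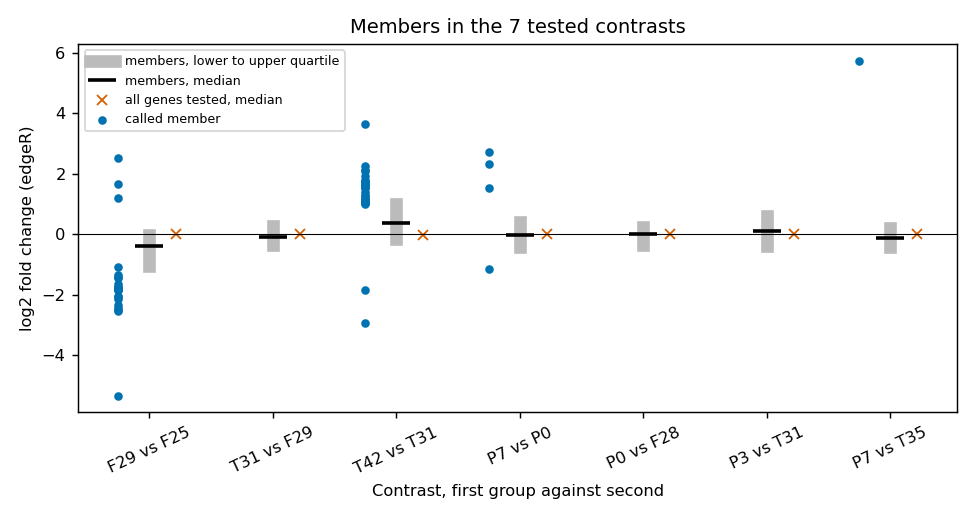
Log2 fold change (vertical axis) in the 7 tested contrasts (horizontal axis). Grey bars run from the lower to the upper quartile of the members tested with the median as a black line, crosses are medians of all genes tested, and blue points are called members. Member medians are -0.40 for F29 against F25 and 0.36 for T42 against T31, and the other 5 lie between -0.13 and 0.10.

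ENSOCUG00000007225, at rank 9, was among the members that fell from F25 to F29. It measured 201, 187, 186 and 155 CPM in F20 animals 1, 17, 35 and 36 and 61.8, 82.5, 57.0 and 60.9 CPM in F23 animals 6, 22, 23 and 40. In run 1 it was 9.36, 17.4 and 14.2 CPM in F25 animals 3, 13 and 18 and 2.26, 2.45 and 1.82 CPM in F29 animals 2, 7 and 11. All F29 animals lay below all F25 animals. The change from F25 to F29 was -2.45 (SE 0.44) on the log2 scale, with an adjusted p of 0.000735 by edgeR. No later library exceeded 5.83 CPM, and the preterm libraries held 0.87 to 3.93 CPM.

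ENSOCUG00000011511, at rank 62, reached the limit of detection before birth. It measured 22.1, 21.6, 24.9 and 18.5 CPM in the same F20 animals and 10.4, 16.4, 10.6 and 12.4 CPM in the F23 animals. In run 1 it was 2.25, 2.79 and 4.04 CPM in the F25 animals and 0.16, 0 and 0 CPM in the F29 animals. It fell from F25 to F29 with an adjusted p of 0.00126 by edgeR, and its fitted log2 change of -5.33 (SE 1.03) rests on 1 count in F29. From the summed counts of the fitted libraries, 65 in F25 and 1 in F29, the level was 65.4 times higher in F25, with an exact interval of 11.3 to 2622 that covers counting error only. The level stayed at or below 0.55 CPM in all term and preterm libraries.

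The other large falls from F25 to F29 were at ranks 18, 63 and 79. Their log2 changes were -2.55 (SE 0.48), -2.49 (SE 0.40) and -2.33 (SE 0.42), with adjusted p of 0.00103, 0.000198 and 0.000661 by edgeR. In run 1, rank 63 measured 18.5, 20.8 and 24.9 CPM in F25 animals 3, 13 and 18 and 3.06, 4.43 and 3.18 CPM in F29 animals 2, 7 and 11.

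The 3 members that rose from F25 to F29 were at ranks 24, 33 and 76, with log2 changes of 1.19, 1.67 and 2.51. The call at rank 33 was lost without any of the 6 animals compared, with adjusted p of 0.0637 to 0.197, and that at rank 24 without F25 animal 18 (0.0519) or F29 animal 2 (0.0596). The largest change was that of rank 76. In run 1 this member measured 61.0, 52.3 and 30.8 CPM in F25 animals 3, 13 and 18 and 202, 278 and 252 CPM in F29 animals 2, 7 and 11. Its log2 change of 2.51 (SE 0.37) had an adjusted p of 8.26e-05 by edgeR. In run 3 it measured 18.2 to 23.3 CPM at F20, 8.99 to 17.1 CPM at F23, 18.2 CPM in F25 animal 13, and 71.1 and 86.8 CPM in F28 animals 2 and 7. The last 3 animals held 52.3, 131 and 152 CPM in run 1.

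F29 and T31 lie on either side of term birth. The 2 groups also differ in gestational day and mode of delivery, and these cannot be told apart from birth. Between F29 and T31, 0 of 149 members were called, against 2 of 15090 genes (0.0133%), by edgeR. At an unadjusted p under 0.05 there were 21 members (14.1%) against 13.9% of all genes. The member at rank 73 fell short of a call, with a log2 change of 1.99 (SE 0.40) and an adjusted p of 0.0576 by edgeR. DESeq2 called 4 members, against 1.24% of the genes with an adjusted p, and limma-voom called 0. In run 1 alone edgeR called 0 of 148 members, 22 of which had an unadjusted p under 0.05, against 0.0411% of genes. Without T31 animal 15, edgeR called 11 members, 4 higher and 7 lower, and 1.75% of all genes.

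From T31 to T42, during the alveolar phase, 25 of 149 members rose and 2 fell by edgeR. The shares were 16.8% and 1.34%, against 3.50% and 1.45% of the 15090 genes tested, of which 4.95% were called in all. The median log2 fold change was 0.36 in members and -0.02 in all genes. In run 3, 50 of the 149 members tested (33.6%) had each T42 animal above each T31 animal, an order held by 17.4% of all genes tested. With run 3 alone, 18 members rose and 1 fell, where 4.00% of genes were called, 2.87% higher and 1.13% lower, and 13 of the 25 were among those that rose. The count was 15 without T42 animal 14 and 16 without T42 animal 50, and the share of all genes called was then 2.69% and 2.92%. With no run in the model, 4 rose and 0 fell, where 2.38% of genes were called. Of the 27 members called, 15 (55.6%) were also called between runs 3 and 1 in the same animals, against 37.8% of the members tested there. The matching share of all genes called from T31 to T42 was not counted, and the part of the run in the result was not tested beyond these fits.

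Of the 19 members that fell from F25 to F29, 8 (42.1%) were among those that rose from T31 to T42, where they were 32.0% of the 25. Over all genes tested, 92 genes were in both sets, 24.3% of the 379 that fell and 17.4% of the 528 that rose. These 2 contrasts share no samples but come from 1 fit and share its run term. The 8 were at ranks 6, 50, 78, 79, 87, 92, 133 and 140. Of these, ranks 6, 50, 78, 92 and 140 were also called lower in run 3 than in run 1, and ranks 79, 87 and 133 were not. The part of the run in this overlap was not tested. Rank 92 was called higher at T42, although its fitted libraries averaged 5.20 CPM at T31 and 1.60 CPM at T42. Rank 140, for example, measured 119, 125 and 144 CPM in F25 animals 3, 13 and 18 and 24.3, 26.0 and 36.5 CPM in F29 animals 2, 7 and 11 in run 1. The run 3 library of F25 animal 13, which entered the fit, held 22.6 CPM and overlapped F29. In run 3 rank 140 measured 1.49, 3.94 and 2.35 CPM in T31 animals 4, 11 and 18 and 14.4, 7.51 and 12.3 CPM in T42 animals 14, 33 and 50, without overlap. The run 1 libraries of T31 animals 1, 10 and 15, which entered the fit, held 12.9, 7.43 and 17.8 CPM and overlapped T42. The log2 change of rank 140 from T31 to T42 was 2.25 (SE 0.39), with an adjusted p of 0.000656 by edgeR. With no run in the model it was 0.67, with an adjusted p of 0.641 by edgeR.

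ENSOCUG00000001353, at rank 34, had the largest rise from T31 to T42. It measured 46.3, 42.2, 28.4 and 33.9 CPM in F20 animals 1, 17, 35 and 36 and 20.6, 21.6, 11.9 and 20.6 CPM in F23 animals 6, 22, 23 and 40. In run 3 it was 10.6, 5.06 and 3.22 CPM in T31 animals 4, 11 and 18 and 59.7, 206 and 17.1 CPM in T42 animals 14, 33 and 50. The groups did not overlap, but the T42 animals spread widely, and animal 33 was above every other library of the series. The log2 change was 3.65 (SE 0.54), with an adjusted p of 0.000125 by edgeR, and 2.45 with an adjusted p of 0.00322 without T42 animal 33. The level was already 28.6 to 73.8 CPM in the T35 libraries.

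ENSOCUG00000015320, at rank 73, also rose from T31 to T42, with less spread among the T42 animals. Its course up to birth differed: the log2 change from F29 to T31, given above, was 1.99, against -0.05 at rank 34. ENSOCUG00000015320 measured 56.7, 27.5, 51.6 and 28.0 CPM in the F20 animals and 20.9, 27.4, 25.9 and 18.9 CPM in the F23 animals. In run 3 it was 32.5, 36.3 and 7.06 CPM in the T31 animals and 84.5, 101 and 70.9 CPM in the T42 animals, without overlap. The run 1 libraries of T31 animals 1, 10 and 15, which entered the fit, held 57.7, 71.3 and 16.9 CPM. Of these, animal 10 overlapped T42. The log2 change from T31 to T42 was 1.73 (SE 0.36), with an adjusted p of 0.00286 by edgeR. With no run in the model it was 1.27, with an adjusted p of 0.0772 by edgeR.

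**Figure D5:**
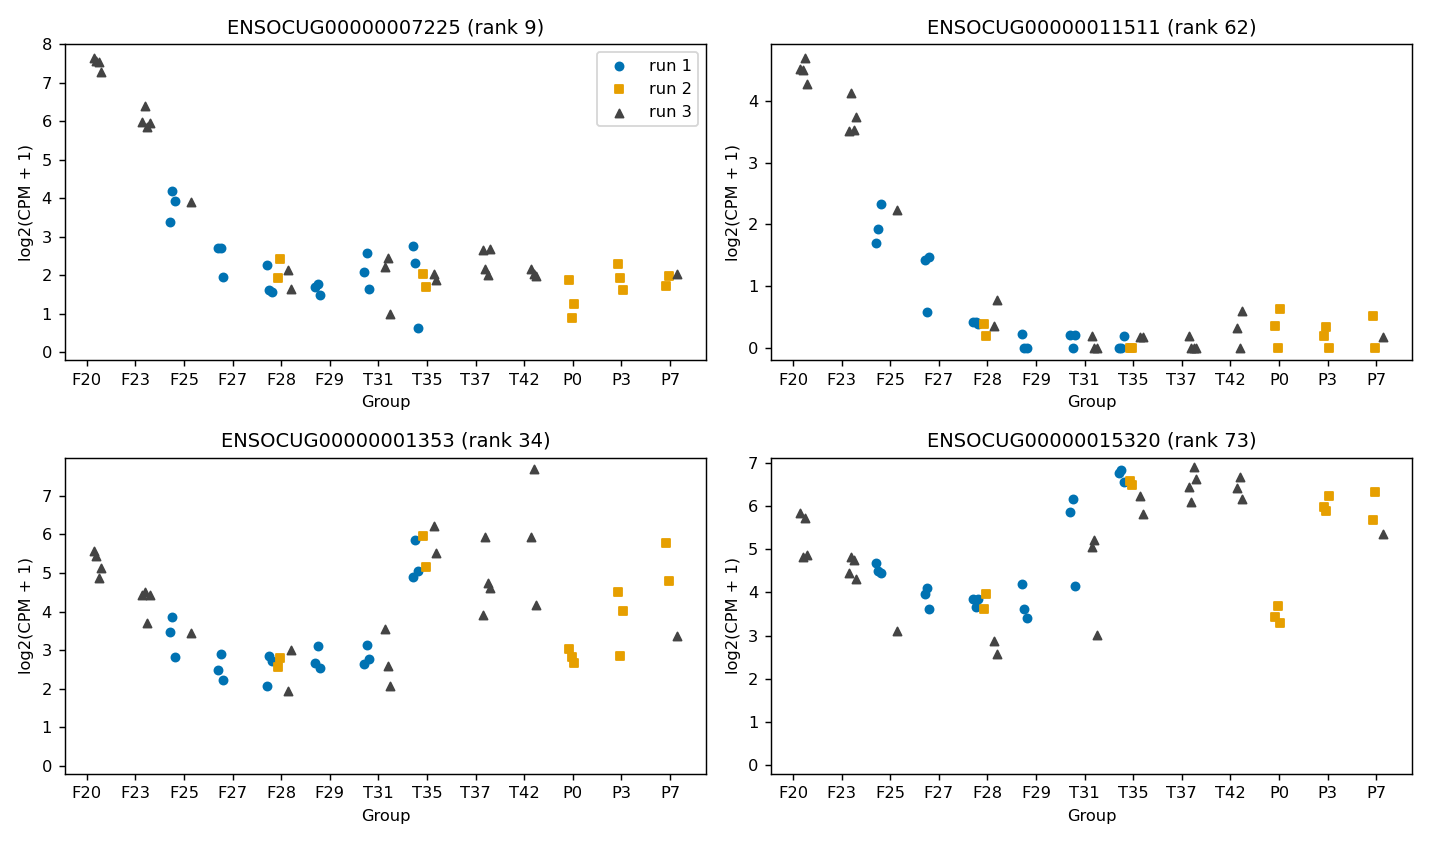
Level as log2(CPM + 1) (vertical axes) of 4 members in each of the 54 libraries by group (horizontal axes), with colour and symbol giving the run. ENSOCUG00000007225 and ENSOCUG00000011511 decline from F20 to F29 and stay low, with at most 5.83 and 0.55 CPM from T31 on. ENSOCUG00000015320 holds 55.6 to 119 CPM at T35 to T42 and 39.98 to 79.55 CPM at P7. ENSOCUG00000001353 spreads from 13.9 to 206 CPM at T35 to T42 and from 9.26 to 54.1 CPM at P7.

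The other large rises from T31 to T42 were at ranks 140, 102, 6 and 78, with log2 changes of 2.25, 2.14, 2.10 and 1.92. All 3 of the last were low, averaging 3.67, 2.26 and 0.85 CPM at T42. In these 3 the fitted libraries of T31 and T42 overlapped, and all 3 were called lower in run 3 than in run 1. Over the alternative fits their lowest log2 changes were 0.784, 0.455 and 0.287, short of the fold threshold. The rise at rank 78 had an adjusted p of 0.142 in run 3 alone and 0.0678 without T42 animal 14 by edgeR. The 2 members that fell were at ranks 49 and 5. The member at rank 5 changed by -1.84 (SE 0.41), with an adjusted p of 0.00547 by edgeR. It had declined from 55.7 to 88.8 CPM at F20 and 15.2 to 31.8 CPM at F23, and in run 3 it measured 3.53, 3.94 and 8.17 CPM in T31 animals 4, 11 and 18 and 1.41, 1.84 and 0.90 CPM in T42 animals 14, 33 and 50. Rank 49 changed by -2.93 (SE 0.73), with an adjusted p of 0.0106 by edgeR. In run 3 it measured 1.77, 0.42 and 4.71 CPM in the T31 animals and 0.13, 0.77 and 0.26 CPM in the T42 animals, and the groups overlapped. Its adjusted p by edgeR was 0.0786 in run 3 alone, 0.0709 without T42 animal 14 and 0.0584 without T42 animal 50.

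In preterm pups from P0 to P7, 3 of 148 members rose and 1 fell by edgeR. The shares of 2.03% and 0.676% were close to those of all 14544 genes tested, 2.50% and 0.536%, and 3.03% were called in all. The members that rose were at ranks 34, 73 and 105, each of which also rose from T31 to T42, and the member that fell was at rank 149. The call at rank 105 was lost without any of the 6 animals compared, with adjusted p of 0.0567 to 0.177 by edgeR. That at rank 149 was lost without any of them but P0 animal 4, with adjusted p of 0.0505 to 0.0855 by edgeR. In run 2 alone, 5 members rose and 3 fell, where 4.26% of genes were called, 3.09% higher and 1.17% lower.

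ENSOCUG00000015320 measured 9.71, 11.8 and 8.85 CPM in P0 animals 1, 3 and 4, and 39.98, 50.4 and 79.5 CPM in P7 animals 1, 3 and 4. The groups did not overlap, and the log2 change was 2.71 (SE 0.49), with an adjusted p of 0.00259 by edgeR. ENSOCUG00000001353 measured 7.15, 6.06 and 5.39 CPM in the P0 animals and 9.26, 54.1 and 26.7 CPM in the P7 animals. Its log2 change was 2.33 (SE 0.50), with an adjusted p of 0.00984 by edgeR. Its adjusted p by edgeR was 0.0505 without P0 animal 3, 0.0516 without P0 animal 4 and 0.0992 without P7 animal 3, where the change was 1.69.

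Preterm pups were also compared with age-matched fetal and term animals. Between P0 and F28, 0 of 148 members were called by edgeR, against 0.117% of genes, with 12 members (8.11%) and 7.62% of genes at an unadjusted p under 0.05. DESeq2 and limma-voom called 0 members each, and in run 2 alone 1 member was called, against 0.218% of genes. Between P3 and T31, 0 members were called by edgeR, against 0.0963% of genes, with 25 members (16.9%) and 10.4% of genes at an unadjusted p under 0.05. DESeq2 called 1 member, against 0.961% of the genes with an adjusted p, and limma-voom called 0. No run held both P3 and T31, so that this comparison depends on the run term of the model.

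Between P7 and T35, 1 of 148 members was called by edgeR, against 0.261% of genes, and 0.254% called higher. In run 2 alone 1 member was called as well, against 0.493% of genes. In both fits it was the first-ranked member, which was higher in the preterm pups. It measured 6.30, 6.75 and 11.2 CPM in P7 animals 1, 3 and 4, and 0, 0.25 and 0.14 CPM in the fitted libraries of T35 animals 1, 6 and 11. The 2 groups did not overlap, and the adjusted p was 0.00778 by edgeR. The summed counts were 183 in P7 and 3 in T35, a ratio of 61.2 with an exact interval of 20.6 to 299 for counting error only. The adjusted p was 0.0598 without T35 animal 1, 0.0599 without T35 animal 6 and 0.0632 without T35 animal 11. In the same animals this member was higher in run 3 than in run 1, by 1.86 (SE 0.48) on the log2 scale. Its levels in T37, given above, reached 10.8 CPM, within the preterm range.

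A further member, at rank 14 and named after its values were seen, varied widely among the preterm pups. It measured 32.0, 14.4 and 5.67 CPM in P0 animals 1, 3 and 4, 8.01, 146 and 45.8 CPM in P3 animals 1, 2 and 3, and 68.3, 44.0 and 76.3 CPM in P7 animals 1, 3 and 4. All P7 animals lay above all P0 animals, yet the change missed the threshold, at 1.71 (SE 0.72) on the log2 scale with an adjusted p of 0.245 by edgeR.

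Over the 7 tested contrasts, 42 of the 150 members (28.0%) were called at least once and 108 were called in none. The share of all genes called at least once was not counted, so the member share cannot be set against it.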

How the data were processed

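Per the study's methods, the authors made the counts from BBduk-trimmed reads by STAR alignment (build OryCun2.0) and HTSeq-count, using Ensembl gene models and a custom script for unannotated 3′ UTRs. Tool versions are not given in the sources used here. The deposited values are whole-number counts per gene, and 0 columns were left unmapped. Counts were divided by the library total to give CPM. Animals were the replicates. Contrasts were tested with edgeR 4.0.16 (quasi-likelihood, TMM, R 4.3.3) with 1 library per animal and the run in the model, after a filter of 0.5 CPM in 3 or more fitted libraries. Calls needed a fold change above 2 and a Benjamini-Hochberg adjusted p of at most 0.05. F20 and F23 entered no fit. Alternatives used DESeq2 1.42.0, limma-voom 3.58.1, other scalings, filters and runs, and leaving out animals. The comparison of runs was added after seeing the data.

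The members and lists were chosen with earlier results of these data known. Named members were to be the 5 called of largest change in each direction per contrast and those at the edges of the rule. Parts of that rule that need gene symbols, and the marker and pathway lists, were not analysed here. Identifiers were printed for 2 members that rose and 2 that fell. In data simulated from the deposited counts, with 200 changed genes, 72.8% were recovered for F29 against F25 (14672 genes) and 68.0% for T42 against T31 (14711 genes), with 2 false calls each, and 66.2% for P7 against T35 (14221 genes) with 7. Every planted change was larger than the median change of the members, and no run difference was simulated. The shares recovered thus do not cover smaller changes or data with run differences. The counts of no 2 libraries agreed within sampling noise: the chi-square per gene was at least 8.45 between animals of 1 group.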

Additional observations from a re-analysis of the deposited data

Results flagged for a closer look

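An animal was flagged where its gap to the nearest other, divided by the range of the group on the log2(CPM + 1) scale, exceeded Dixon's critical value of 0.829 in T37, a group of 4 libraries from 1 run. F20 and F23 chose the members and were not tested, and T31 was left out because its libraries come from different runs. At T37 the member at rank 76 was flagged (0.841) for animal 46 at 66.5 CPM, where the others held 90.2 to 95.5 CPM. The member at rank 63 was flagged (0.872) for animal 27 at 4.92 CPM, where the others held 10.1 to 11.2 CPM. The member at rank 62 was flagged with a value of 1, but this is a single count in animal 12 against 0 in the others. Over all 150 members 11 were flagged (7.33%), against 6.16% of the 8768 genes at or above the floor, and chance flags about 1 in 20 groups.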

How the results depend on the processing

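Counts of called members moved by over 1.5 times as follows, and the cause was not tested. With no run in the model, 13 members were called for F29 against F25 (22 as reported), 4 for T42 against T31 (27), 2 for P7 against P0 (4), 2 for P3 against T31 (0) and 2 for P7 against T35 (1). Over all genes, 710 (1008 as reported), 359 (747), 352 (441), 178 (14) and 34 (38) were then called in the same order. DESeq2 called 4 members for T31 against F29 (0), 8 for P7 against P0, 1 for P3 against T31 and 2 for P7 against T35. Over all genes it called 133 (2 as reported), 592 (441), 118 (14) and 141 (38) in the same order. With no filter on low counts, 2 members were called for each of T31 against F29, P3 against T31 and P7 against T35. Over all genes, 66, 109 and 131 were then called. In run 2 alone, 8 were called for P7 against P0 and 1 for P0 against F28. With 1 animal left out, counts ran from 14 to 21 for F29 against F25, 15 to 32 for T42 against T31, 0 to 11 for T31 against F29, 1 to 4 for P7 against P0, 0 to 1 for P7 against T35, 0 to 0 for P0 against F28 and P3 against T31, and 55 to 59 for run 3 against run 1. Over all genes the counts ran from 735 to 953, 405 to 842, 0 to 264, 301 to 382 and 13 to 30, in the same order down to P7 against T35. The lowest member count for P7 against P0, 1, came without P0 animal 3, and 2 members were called without P0 animal 4, P7 animal 1 or P7 animal 3. The 1 call for P7 against T35 was lost without any of the 3 T35 animals, and limma-voom called 1 other member there, with an adjusted p of 0.0644 for the first-ranked one. For 23 changes of single members, 265 of 308 alternative values kept direction and side of the threshold, 43 no longer passed, and none reversed.

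The rule kept 141 of 150 members with log2(CPM + 0.5), 130 with TMM-scaled totals, 107 with a floor of 3.6, and 102 to 123 with 1 animal left out.

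Animal numbers are shared by P0 and P7. The correlation of same-numbered deviations was 0.069, 0.202 and 0.010 over 13537 genes, so the numbers were not taken as pairs. With the replicate block, 3 members were called for P7 against P0 against 4 without it. Over all genes, 424 were called with the block and 441 without it. No paired analysis was possible for the other contrasts because their groups share fewer than 2 numbers.

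Depth limits members near 0.5 CPM, where a few counts set the value.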
